A study of Mus musculus with 18 samples.

Results

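The genes described here are 57 components of the early secretory pathway and of protein folding in the endoplasmic reticulum (ER), listed by family, namely the translocon and signal peptidase, the COPII coat and ER exit receptors, the COPI coat and retrieval receptors, ER chaperones and folding enzymes, and 4 transcription factors of ER stress. The secreted cargo itself was left out of the list. All 57 were found among the 55453 gene symbols of the count table, and all 57 were among the 16170 symbols tested. They were measured by bulk RNA sequencing in 18 libraries of sorted GFP+ cardiac fibroblasts, 3 libraries in each of 6 groups. All pups were Tcf21-MerCreMer/+; Rosa-mTmG/+ mice on a C57BL/6J background, in which a tamoxifen-activated Cre expressed from the Tcf21 locus turns on membrane GFP, and all groups received tamoxifen at P1. For P2 baseline and P10 baseline, cells were taken at P2 or P10 from hearts that had no operation. The group P2 resected +3 days had the apex removed at P2, P2 sham +3 days had the chest opened and the heart exposed at that age, and both were collected at P5. The groups P10 resected +3 days and P10 sham +3 days had the same procedures at P10 and were collected at P13. The cells therefore represent only the lineage that expressed Tcf21 when tamoxifen was given, from the apical part of the ventricles, and the sex and number of hearts behind a library are not given in the sources used here.

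Proteins destined for secretion, among them the collagens that fibroblasts deposit, are threaded into the ER through the Sec61 channel, lose their signal peptide there and are folded by BiP, the HSP90 paralog Grp94, lectin chaperones and protein disulfide isomerases. COPII-coated carriers take folded cargo from ER exit sites to the Golgi, and COPI carriers return escaped ER residents that KDEL receptors recognise. When unfolded protein accumulates, the sensors IRE1, PERK and ATF6 raise the transcription of chaperones, coat components and degradation factors through XBP1, ATF4 and cleaved ATF6.

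Total counts ran from 10462737 to 22980554 per library. The 57 genes together held 1.66% to 2.41% of a library's scaled reads, and the lowest count of any member in any library was 80 reads, for Sec24a. Expression is given as CPM, the read count relative to a library size scaled by TMM. The fibroblast markers Tcf21, Pdgfra, Col1a1, Col1a2, Dcn and Lum were all present in every library, with Tcf21 between 203 and 447 CPM. Transcripts of other cells were present. The 8 macrophage markers summed to 7.76 to 383 CPM in the P2 window and 18.3 to 969 CPM in the P10 window, and the 6 cardiomyocyte markers to 125 to 661 and 68.3 to 358 CPM. The 6 mural markers summed to 293 to 777 CPM in the P2 window and 475 to 1311 CPM in the P10 window. Replicates are libraries that the labels number separately, and nothing says whether they came from separate litters, so p-values measure the spread between these libraries. By the slope of expression on exon length over genes outside the lists, 3 libraries held the largest excess of long transcripts, namely P2 sham +3 days replicate 1, P10 baseline replicate 1 and P10 sham +3 days replicate 1, and P2 sham +3 days replicate 2 the largest excess of short ones. The titles of the first 3 end in the number 3 and those of no other library do, and the labels do not say what that number marks. The counts of calls are given with the first 3 and without them, where they are called the long-transcript libraries. The slopes of these 3 were 0.15, 0.16 and 0.14, and P2 baseline replicate 2 came next at 0.12, so the trend was not confined to them.

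Promoter sequence is shown first because 2 elements known from earlier work fell in different roles among the members, the ER stress response element (ERSE), to which ATF6 binds together with NF-Y, and the unfolded protein response element (UPRE), bound by ATF6 and XBP1. RefSeq promoters of GRCm38.p6, from 250 bases before to 50 after the start site, were matched by symbol for 47 of the 57 members. ERSE was searched on both strands as CCAAT, 9 bases of any kind and CCACG, and UPRE as TGACGTGG. ERSE was present in 7 members (14.9% of those with a promoter), against 37 of 27025 genes with a promoter (0.137%). All 7 belong to the chaperone and folding group. The related ERSE-II (ATTGG, 1 base, CCACG) was present in 1 member, Dnajb11, a BiP cochaperone, against 0.0444% of genes, and the CARE element of ATF4 (TGATG, 1 base, AA) in 1, Kdelr1, against 4.51%. UPRE was present in 5 members, Copb1, Copb2, Kdelr3, Sec23a and Sec24d (10.6%), against 0.714% of all genes, and all 5 encode coat components or retrieval receptors. The list was drawn up to hold ER chaperones and ER stress genes, so a high share of these elements is partly built into it. A match of letters is not shown to be a site in use. The ERSE stretches are printed 5′ to 3′ on the strand of the gene, with the fixed letters of the motif in capitals:
Hspa5 ERSE, chr2:34772010-34772058, plus strand: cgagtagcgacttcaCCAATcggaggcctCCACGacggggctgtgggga
Hsp90b1 distal ERSE, chr10:86705623-86705671, minus strand: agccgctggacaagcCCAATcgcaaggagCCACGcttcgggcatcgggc
Hsp90b1 proximal ERSE, chr10:86705518-86705566, minus strand: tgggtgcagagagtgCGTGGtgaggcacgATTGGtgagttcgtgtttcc
Calr ERSE, chr8:84847060-84847108, minus strand: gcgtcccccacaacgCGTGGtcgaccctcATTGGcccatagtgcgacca
Canx ERSE, chr11:50325785-50325833, minus strand: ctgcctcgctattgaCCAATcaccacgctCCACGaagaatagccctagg
Pdia6 ERSE, chr12:17266476-17266524, plus strand: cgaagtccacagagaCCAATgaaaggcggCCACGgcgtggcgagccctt
Dnajc3 ERSE, chr14:118937812-118937860, plus strand: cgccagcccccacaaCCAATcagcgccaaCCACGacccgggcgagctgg
Creld2 ERSE, chr15:88819505-88819553, plus strand: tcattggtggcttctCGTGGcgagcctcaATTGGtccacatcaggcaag

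The motif lies 65 to 47 bases before the start site in Hspa5 (BiP), and Hsp90b1 (Grp94) carries it 212 to 194 and again, on the other strand, 107 to 89 bases before the start. The UPRE letters before the start site of Kdelr3, a KDEL receptor, of Sec24d, a cargo-selecting COPII subunit, and of Copb1, a COPI subunit, are shown in capitals for comparison, as is the ERSE-II of Herpud1, a degradation factor outside the 57 whose level is given further on:
Kdelr3 UPRE, chr15:79516363-79516400, plus strand: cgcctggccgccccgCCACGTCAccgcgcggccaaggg
Sec24d UPRE, chr3:123267455-123267492, plus strand: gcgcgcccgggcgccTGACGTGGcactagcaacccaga
Copb1 UPRE, chr7:114254686-114254723, minus strand: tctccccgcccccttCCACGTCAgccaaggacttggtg
Herpud1 ERSE-II, chr8:94386362-94386402, plus strand: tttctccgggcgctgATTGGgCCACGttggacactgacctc

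Levels spanned a wide range when set on a per-length scale, as mean CPM per kilobase of summed exons over the 18 libraries. P4hb, the protein disulfide isomerase that is also a subunit of collagen prolyl 4-hydroxylase, was highest at 604 CPM per kb, followed by Kdelr3 at 424, Hspa5 at 413, Pdia3, a disulfide isomerase for glycoproteins, at 381 and Calr (calreticulin) at 349.7. Among the paralogs of a family the levels were uneven. Kdelr3 stood above Kdelr2 (176 CPM per kb) and Kdelr1 (68.0), Sec24d (57.2) above Sec24c (20.9) and Sec24a (1.82), Sec23a (41.5) above Sec23b (13.3), and Sec11a (38.3) above Sec11c (5.90), the alternative catalytic subunits of the signal peptidase. The lowest were Sec24a, Sec61g (4.31), Sec11c, Hyou1 (6.21), a nucleotide exchange factor of BiP, and Sec63 (10.1), a translocon partner. Sec61g has 4 near-identical copies elsewhere in the annotation, so reads that could be placed in several positions may not have been counted and its level is uncertain. Other members shared stretches of 75 bases or more, at 97% identity or above, with other genes. The longest were 660 bases in Tmed10, 604 in Tmed2, 474 in Sec61b, 366 in Ssr2 and 156 in Dnajb9. Sec23b shared such stretches with 11 genes, but the longest was 114 bases of its 6302 of summed exons. For Sec24a it was 150 of 10683 bases and for Sec11a 128 of 4614. The order of Sec23a and Sec23b, of the Sec24 genes and of Sec11a and Sec11c carries this doubt for those stretches only.

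**Figure D1:**
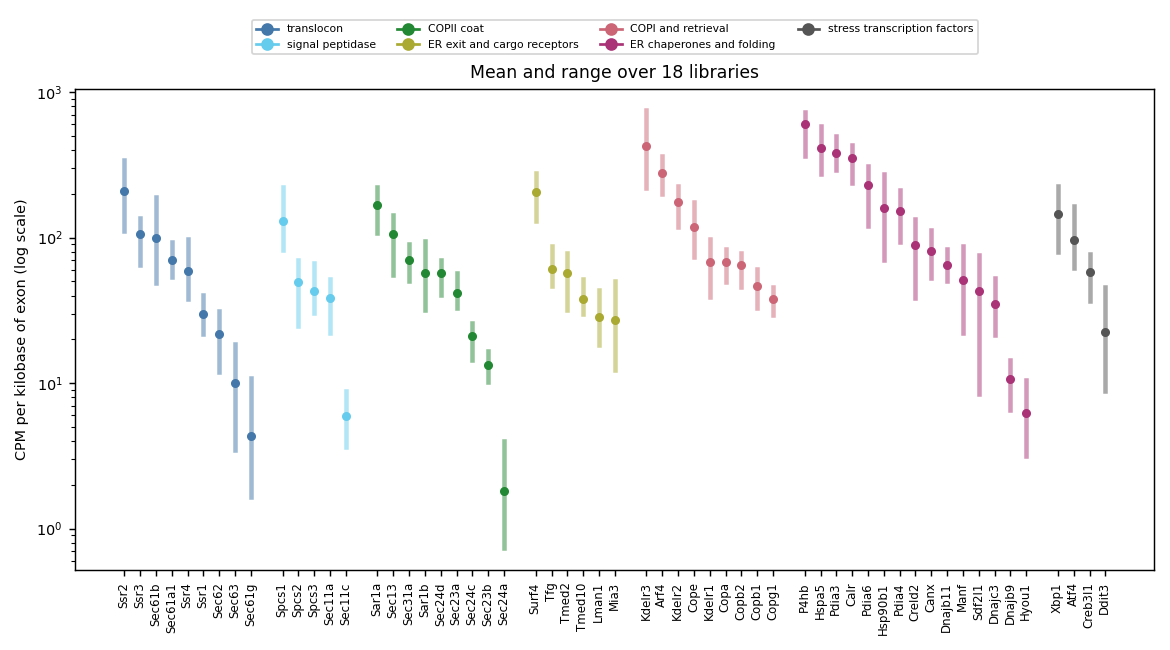
Level of each of the 57 genes on the CPM per kilobase scale (log axis), grouped by role. Points are means and bars the lowest to highest of 18 libraries. P4hb is highest at 604 and Sec24a lowest at 1.82 CPM per kb.

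The first comparison asked whether these genes changed between the age window in which the mouse heart regenerates after resection and the later one in which it does not. The 9 libraries of the P10 window (P10 baseline and both groups collected at P13) were set against the 9 of the P2 window (P2 baseline and both groups collected at P5), as the mean of 3 group differences. Of the 57 genes, 3 were lower in the P10 window and 0 were higher at an adjusted p under 0.05 (edgeR quasi-likelihood test, Benjamini-Hochberg over all genes tested). The 3 were Ssr1, Sec11c and Hsp90b1, from 3 different roles. They were 5.26% of the 57, against 13.5% of all 16170 genes called in either direction and 6.39% called lower. The share of members was below that of all genes in this fit, but above it in the 3 fits made for the long-transcript libraries, at 24.6% against 22.5% without them, 24.6% against 20.9% with a length covariate and 33.3% against 26.1% with a term for them. At an unadjusted p under 0.05 there were 14 members, 10 lower and 4 higher (24.6%), against 28.3% of all genes. The median log2 fold change was -0.05 over the members and -0.06 over all genes tested, and the median size of the change regardless of sign was 0.21 against 0.42. The 95% interval of the log2 fold change lay within -1 and 1, that is within a 2-fold change, for 55 of the 57, the exceptions being Sec24a and Hsp90b1, and within -0.5 and 0.5 for 25. In bulk samples fewer cells of a type and less RNA per cell cannot be told apart.

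**Figure D2:**
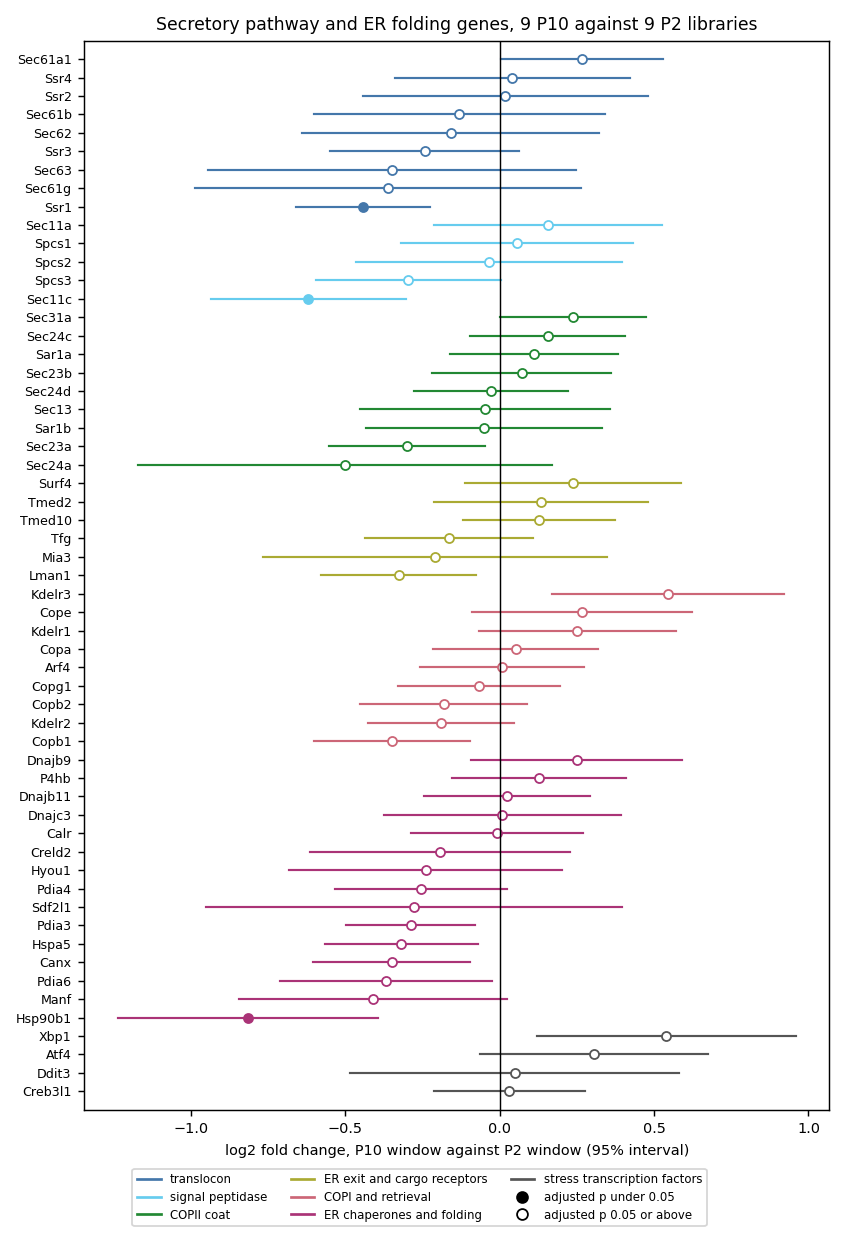
Log2 fold change of each of the 57 genes between the 9 P10-window and 9 P2-window libraries, with 95% intervals, coloured by role and sorted within it. Filled points are the 3 genes called (Ssr1, Sec11c and Hsp90b1), all left of 0, and most other intervals cross 0.

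In the translocon, 1 of 9 genes was called by edgeR and by DESeq2, and limma-voom called Ssr3 and Sec61a1 as well. Ssr1 (chr13:37966605-37994217, minus strand of GRCm38), the alpha subunit of the TRAP complex that assists translocation beside Sec61, had 254, 361 and 421 CPM as the lowest, median and highest of the 9 P2-window libraries, against 226, 261 and 307 CPM in the 9 P10-window libraries. The lowest of the P2-window libraries, P2 sham +3 days replicate 1 at 254 CPM, fell among those of the P10 window, although the highest P10 values stayed under the next P2 ones. The gene fell by 0.44 on the log2 scale, or to 0.736 of its P2-window level (SE 0.10, 95% interval -0.66 to -0.23, adjusted p 0.00741). Without the filter on low counts its call was lost (log2 fold change -0.41, adjusted p 0.109). The other TRAP subunits did not pass the edgeR test: Ssr4, the delta subunit, ranged over 117 to 301 CPM in the P2 window (median 156) and 123 to 249 CPM in the P10 window (median 189) (log2 fold change 0.04, SE 0.18, 95% interval -0.34 to 0.42, adjusted p 0.931). Sec61a1, which forms the channel itself, had 359, 397 and 549.7 CPM as the lowest, median and highest of the 9 P2-window libraries, against 376, 539.5 and 626 CPM in the 9 P10-window libraries (log2 fold change 0.27, SE 0.12, 95% interval 0.00447 to 0.53, adjusted p 0.17). Its windows overlapped, between 376 and 549.7 CPM. The remaining 6 translocon genes had log2 fold changes between -0.36 (Sec61g) and 0.02 (Ssr2).

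In the signal peptidase, 1 of 5 genes was called by edgeR and by DESeq2, and limma-voom called Spcs3 as well. Sec11c, one of its 2 alternative catalytic subunits, had 28.5, 54.1 and 60.4 CPM as the lowest, median and highest of the 9 P2-window libraries, against 24.9, 30.4 and 40.4 CPM in the 9 P10-window libraries. The values by group show where the overlap arose, with 47.3, 45.3 and 55.4 CPM in P2 baseline, 60.4, 57.1 and 54.1 CPM in P2 sham +3 days and 56.8, 28.5 and 34.4 CPM in P2 resected +3 days. Replicates 2 and 3 of P2 resected +3 days were as low as the P10-window libraries, and the other 7 P2-window libraries were above them all. Sec11c fell by 0.62 on the log2 scale (SE 0.15, 95% interval -0.94 to -0.30, adjusted p 0.00952), and its call too was lost without the filter (adjusted p 0.0618). Sec11a, the other catalytic subunit and the more abundant per length, had a log2 fold change of 0.16 (SE 0.18), and the accessory subunits Spcs1, Spcs2 and Spcs3 lay between -0.30 and 0.06.

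None of the 9 COPII genes and none of the 6 ER exit and cargo receptor genes was called by edgeR, with 2 and 1 at an unadjusted p under 0.05. DESeq2 called none of these 15 either, and limma-voom with quality weights called Sec23a, Sec24a and Lman1. Sec23a, of the inner COPII shell, had 168, 223 and 278 CPM as the lowest, median and highest of the 9 P2-window libraries, against 158, 180.5 and 207 CPM in the 9 P10-window libraries (log2 fold change -0.30, SE 0.12, 95% interval -0.55 to -0.05, adjusted p 0.109). The 2 windows overlapped between 168 and 207 CPM. Sec24d, a cargo-selecting subunit, was close to level, with 255 to 445 CPM in the P2 window (median 354) and 297 to 408 CPM in the P10 window (median 359.6) (log2 fold change -0.03, SE 0.12, 95% interval -0.28 to 0.22, adjusted p 0.928). Mia3 (TANGO1), the exit-site receptor that loads collagen, had 54.7, 122 and 187 CPM as the lowest, median and highest of the 9 P2-window libraries, against 60.8, 103 and 225 CPM in the 9 P10-window libraries (log2 fold change -0.21, SE 0.26, 95% interval -0.76 to 0.35, adjusted p 0.666). Of the P10-window libraries, P10 baseline replicate 1 (225 CPM) and P10 sham +3 days replicate 1 (152 CPM) were highest, and these are 2 of the 3 long-transcript libraries. The other COPII genes had log2 fold changes between -0.50 (Sec24a, SE 0.32) and 0.24 (Sec31a, of the outer cage), and the other exit receptors between -0.33 (Lman1, a lectin receptor) and 0.24 (Surf4).

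Among the 9 COPI and retrieval genes none was called by edgeR, 2 were at an unadjusted p under 0.05, DESeq2 called Copb1 and Kdelr3, and limma-voom called Kdelr1 as well. Kdelr3, whose KDEL receptor returns BiP and other residents to the ER, had 311, 469.7 and 656 CPM as the lowest, median and highest of the 9 P2-window libraries, against 482, 706 and 1056 CPM in the 9 P10-window libraries. By group it was at 418, 311 and 638 CPM in P2 baseline, 357, 656 and 586 CPM in P2 sham +3 days, 473, 463 and 469.7 CPM in P2 resected +3 days, 488, 767 and 777 CPM in P10 baseline, 482, 1056 and 874 CPM in P10 sham +3 days and 567, 706 and 675 CPM in P10 resected +3 days. Of the P10-window libraries, replicate 1 of each group lay within the P2-window range and the other 6 above it. The estimate was higher in the P10 window but missed the threshold (log2 fold change 0.55, SE 0.18, 95% interval 0.17 to 0.92, adjusted p 0.0504), and 12 of 26 alternative settings called it, with adjusted p from 0.00087 to 0.115. Kdelr2, its paralog, had 259 to 413 CPM in the P2 window (median 334) and 216 to 385 CPM in the P10 window (median 291) (log2 fold change -0.19, SE 0.11, 95% interval -0.43 to 0.05, adjusted p 0.289). The COPI coat subunits Copa, Copb1, Copb2, Cope and Copg1 had log2 fold changes from -0.35 (Copb1, adjusted p 0.0619) to 0.27 (Cope), Arf4, a small GTPase of coat recruitment, 0.01, and Kdelr1 0.25.

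Of the 15 chaperone and folding genes, 1 was called by edgeR, DESeq2 called Canx and Pdia3 as well, limma-voom called these and Hspa5, and 11 had estimates below 0, with a median log2 fold change of -0.25 against -0.06 over all genes. Hsp90b1 (Grp94, chr10:86690209-86705509, minus strand of GRCm38), the ER paralog of HSP90, had 422, 877 and 1108 CPM as the lowest, median and highest of the 9 P2-window libraries, against 283, 453 and 716 CPM in the 9 P10-window libraries. By group its values were 1074, 1108 and 877 CPM in P2 baseline, 1027, 422 and 612 CPM in P2 sham +3 days, 791, 642 and 919 CPM in P2 resected +3 days, 716, 346 and 359.7 CPM in P10 baseline, 529, 283 and 453 CPM in P10 sham +3 days and 594, 346 and 576 CPM in P10 resected +3 days. The 3 P2 baseline libraries and P2 resected +3 days replicates 1 and 3, with P2 sham +3 days replicate 1, lay above every P10-window library, and the other 3 P2-window libraries overlapped them. Hsp90b1 fell by 0.81 on the log2 scale, to 0.569 of its P2-window level (SE 0.20, 95% interval -1.23 to -0.39, adjusted p 0.0104), and it was called under every one of 26 alternative settings. Of its exon bases, 10.3% overlap the gene 1810014B01Rik on the opposite strand, and counting was without regard to strand, so reads of both cannot be told apart there and may not have been counted.

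Hspa5 (BiP), the main ER HSP70, had 1484, 1905 and 2468 CPM as the lowest, median and highest of the 9 P2-window libraries, against 1162, 1534 and 2262 CPM in the 9 P10-window libraries (log2 fold change -0.32, SE 0.12, 95% interval -0.57 to -0.07, adjusted p 0.0844). Calr, a lectin chaperone, had 828 to 1216 CPM in the P2 window (median 993) and 684 to 1238 CPM in the P10 window (median 1025) (log2 fold change -0.01, SE 0.13, 95% interval -0.29 to 0.27, adjusted p 1). Dnajb9 (ERdj4), a J-domain partner of BiP, had 16.6 to 31.9 CPM in the P2 window (median 26.6) and 23.7 to 36.9 CPM in the P10 window (median 27.4) (log2 fold change 0.25, SE 0.16, 95% interval -0.09 to 0.59, adjusted p 0.344).

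The stress-inducible ER proteins Creld2, Sdf2l1 and Manf spread widely between libraries of the same window. Creld2 had 96.3 to 183 CPM in the P2 window (median 134) and 52.5 to 159 CPM in the P10 window (median 129.5) (log2 fold change -0.19, SE 0.20, 95% interval -0.61 to 0.23, adjusted p 0.585). Sdf2l1, a partner of ER J-domain proteins, had 25.9 to 84.5 CPM in the P2 window (median 55.4) and 9.28 to 65.3 CPM in the P10 window (median 47.8) (log2 fold change -0.28, SE 0.32, 95% interval -0.95 to 0.40, adjusted p 0.633), and its lowest values were 9.28 CPM in P10 baseline replicate 1 and 18.0 CPM in P10 sham +3 days replicate 1. Manf, a secreted folding factor, had 141 to 307 CPM in the P2 window (median 195) and 78.3 to 231 CPM in the P10 window (median 151) (log2 fold change -0.41, SE 0.21, 95% interval -0.84 to 0.02, adjusted p 0.203). The same libraries were lowest for all 3 genes. The remaining 8 folding genes had log2 fold changes from -0.37 (Pdia6) to 0.13 (P4hb), with adjusted p of 0.0632 for Pdia3 and 0.0636 for Canx (calnexin). The 7 genes with an ERSE ranged from -0.81 (Hsp90b1) to 0.01 (Dnajc3, an inhibitor of PERK-type kinases), and edgeR called 1 of the 7, Hsp90b1. DESeq2 called Canx as well, and limma-voom Canx and Hspa5. The 5 with a UPRE ranged from -0.35 (Copb1) to 0.55 (Kdelr3), and edgeR called none of them. DESeq2 called Copb1 and Kdelr3, and limma-voom those and Sec23a.

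None of the 4 stress transcription factors was called by edgeR, 1 was at an unadjusted p under 0.05, and DESeq2 and limma-voom called Xbp1. Xbp1, whose mRNA IRE1 splices to make the active factor, had 295, 400.2 and 489 CPM as the lowest, median and highest of the 9 P2-window libraries, against 258, 575 and 738 CPM in the 9 P10-window libraries (log2 fold change 0.54, SE 0.20, 95% interval 0.12 to 0.96, adjusted p 0.0827). Counts per gene do not separate its spliced from its unspliced form. P10 baseline replicate 1 (258 CPM) and P10 sham +3 days replicate 1 (357 CPM) were the lowest of the P10 window. P10 resected +3 days replicate 1 (457 CPM) lay in the upper part of the P2 range, and the other 6 lay above it. Creb3l1 (OASIS), a membrane-bound factor that drives collagen transcription in bone, was close to level, with 94.8 to 199 CPM in the P2 window (median 163) and 104 to 185 CPM in the P10 window (median 156) (log2 fold change 0.03, SE 0.12, 95% interval -0.21 to 0.28, adjusted p 0.912).

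Atf4, the factor translated under the integrated stress response, had 146 to 302 CPM in the P2 window (median 188) and 179 to 391 CPM in the P10 window (median 242) (log2 fold change 0.31, SE 0.18, 95% interval -0.06 to 0.68, adjusted p 0.274). Ddit3 (CHOP), its target, had 15.2, 27.2 and 78.1 CPM as the lowest, median and highest of the 9 P2-window libraries, against 20.0, 37.5 and 68.9 CPM in the 9 P10-window libraries (log2 fold change 0.05, SE 0.25, 95% interval -0.48 to 0.58, adjusted p 0.945). By group Ddit3 was at 29.7, 25.5 and 25.5 CPM in P2 baseline, 52.9, 55.6 and 24.0 CPM in P2 sham +3 days, 27.2, 15.2 and 78.1 CPM in P2 resected +3 days, 68.9, 55.0 and 55.6 CPM in P10 baseline, 38.6, 37.5 and 35.9 CPM in P10 sham +3 days and 29.7, 20.0 and 21.1 CPM in P10 resected +3 days. The P2-window libraries held both the lowest and the highest value, and P2 resected +3 days replicate 3 was 78.1 CPM while its companions were 27.2 and 15.2. The same library was the highest of its window for Atf4, at 302 CPM.

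**Figure D3:**
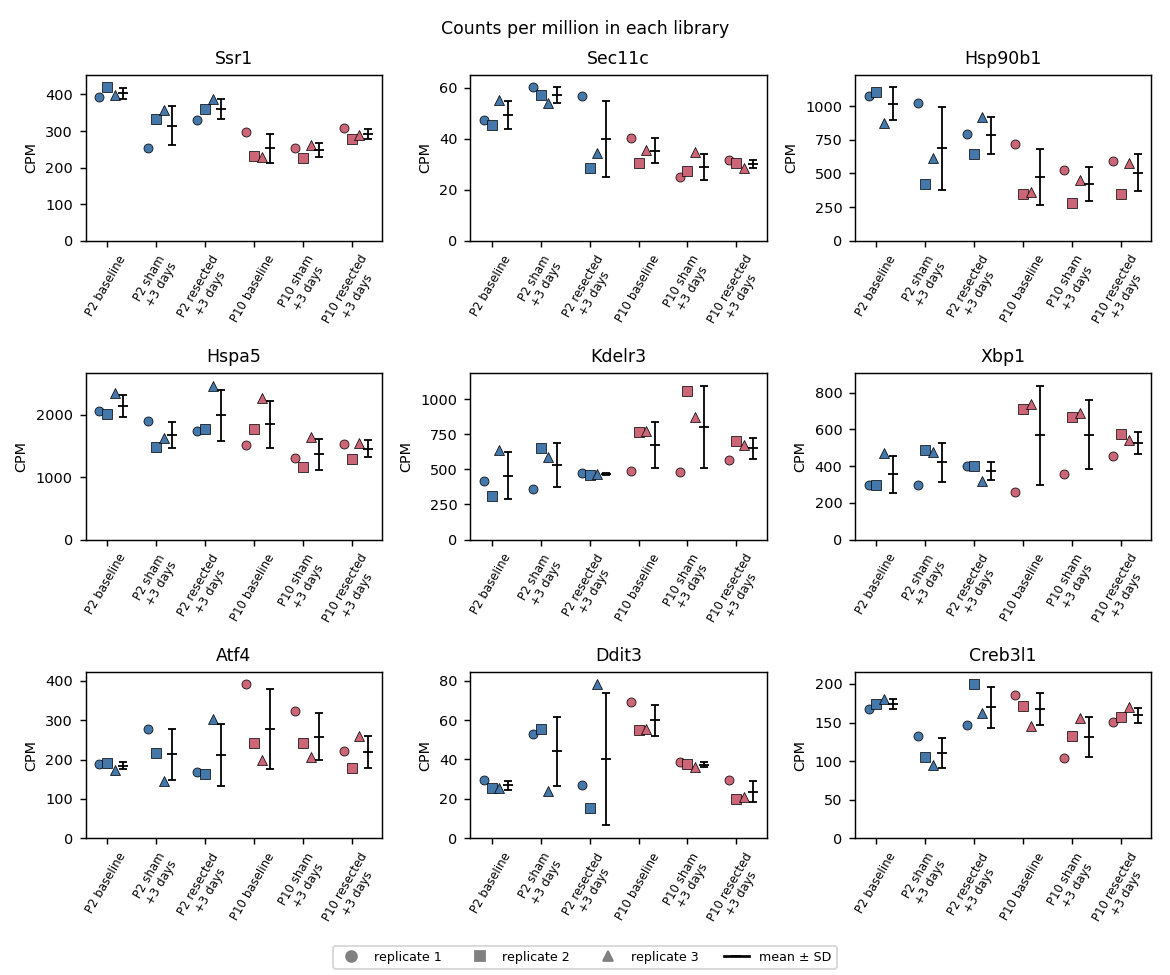
CPM of 9 genes in each of the 18 libraries (points, shape by replicate number) with the group mean ± SD beside them, axes from 0. The means of Ssr1, Sec11c and Hsp90b1 sit lower in the P10 groups, Kdelr3 and Xbp1 are spread from 482 to 1056 and 258 to 738 CPM over the P10-window libraries, and Creb3l1 has its lowest mean of each age in the sham group.

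Other transcripts moved between the windows beside these genes. All 8 cell cycle markers were lower in the P10 window, summing to 757 to 1378 CPM in the P2-window and 129 to 429 CPM in the P10-window libraries. Of 8 immediate early genes, 4 (Fos, Jun, Junb and Egr1) were higher, with sums of 2991 to 7679 against 6017 to 13309.5 CPM. The methods give a longer digestion for older hearts, so age and digestion time cannot be told apart. Calls were 2 of 6 fibroblast markers (Dcn and Lum, higher), 3 of 6 mural markers (Rgs5, Kcnj8 and Myh11, higher), 2 of 6 cardiomyocyte markers (Tnnt2 and Myh7, lower), 1 of 8 macrophage markers (Cd14, higher), and none of the 6 endothelial or 4 epicardial ones by edgeR, with 1 and 1 of these at an unadjusted p under 0.05. The defining markers at 0 in the most libraries were Upk3b (epicardial, 9 of 18) and Myh7 (cardiomyocyte, 8 of 18). The part of these cells in the changes of Ssr1, Sec11c and Hsp90b1 was not tested.

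The age difference was next taken within each surgical state, 3 libraries against 3. At baseline 1 member was called, Ssr1, against 4.38% of all genes, and 10 members were at an unadjusted p under 0.05 (17.5%), against 18.7% of all genes. Ssr1 was at 392, 421 and 398 CPM in P2 baseline and 298, 231 and 229 CPM in P10 baseline (log2 fold change -0.68, SE 0.18, 95% interval -1.05 to -0.30, adjusted p 0.0393). Its call depended on the setting, since 8 of 15 alternative settings called it, with adjusted p up to 0.287. It was lost without the filter, in the fit of the 2 baseline groups alone and in 5 of the 6 fits that left out 1 of these libraries. The groups did not overlap for Ssr1, nor for 14 other members, 11 of these 15 lower and 4 higher at P10, while 22.4% of all genes did not overlap. Hsp90b1 at baseline was 1074, 1108 and 877 CPM at P2 and 716, 346 and 359.7 CPM at P10, a larger estimate than for any other member that was lower (log2 fold change -1.11, SE 0.35, 95% interval -1.84 to -0.37, adjusted p 0.081). It missed the threshold, and 8 of 15 alternative settings called it, with adjusted p up to 0.293. Ddit3 had the largest estimate upward, with 29.7, 25.5 and 25.5 CPM at P2 and 68.9, 55.0 and 55.6 CPM at P10 (log2 fold change 1.15, SE 0.44, 95% interval 0.22 to 2.09, adjusted p 0.161). Hspa5 was 2056, 2016 and 2350.4 CPM at P2 and 1512, 1766 and 2262 CPM at P10 (log2 fold change -0.21, SE 0.20, 95% interval -0.64 to 0.22, adjusted p 0.643). The fit without the 3 long-transcript libraries, DESeq2 and limma-voom with quality weights called 11, 5 and 14 members at baseline, against 16.8%, 10.1% and 22.5% of all genes in the same fits, and fitting the 2 baseline groups alone called 0, against 2.14%. In the first of these fits the P10 baseline libraries left had length slopes of -0.02 and -0.13, beside 0.09, 0.12 and -0.02 in P2 baseline. The part of that difference in the 11 calls was not tested.

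After sham surgery 1 member was called, against 3.18% of all genes. It was Sec11c, with 60.4, 57.1 and 54.1 CPM in P2 sham +3 days and 24.9, 27.4 and 34.7 CPM in P10 sham +3 days (log2 fold change -0.98, SE 0.26, 95% interval -1.53 to -0.43, adjusted p 0.0487). The groups did not overlap, but its call was lost in each of the 6 fits that left out 1 of these libraries. At an unadjusted p under 0.05 there was also 1 member, Sec11c (1.75%), against 16.3% of all genes. After resection no member was called by edgeR, limma-voom or DESeq2, against 0.86% of all genes by edgeR, and 1, Hspa5, was at an unadjusted p under 0.05 (1.75%), against 8.77% of all genes. Hspa5 was at 1736, 1776 and 2468 CPM in P2 resected +3 days and 1534, 1296 and 1549 CPM in P10 resected +3 days (log2 fold change -0.45, SE 0.20, 95% interval -0.88 to -0.02, adjusted p 0.529). All 3 of the P10 values were below the P2 ones. The estimates of the members ran from -0.92 (Sec24a) to 0.49 (Xbp1). Side by side, Ssr1 had log2 fold changes of -0.68, -0.35 and -0.30 in un-manipulated, sham and resected hearts in that order, each with an SE of 0.18. Sec11c had -0.48, -0.98 and -0.40, and Hsp90b1 -1.11, -0.70 and -0.63. The estimates of these 3 genes were below 0 in every state. The genes were picked by the mean of these same 3 differences, so the shared sign is not separate evidence. No difference between states was called for any of them in the tests of surgery effects between ages given further on.

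Of 53 other genes of the same pathways, listed by family and not by their change, 4 were called between the windows, 2 higher and 2 lower (7.55%), against 13.5% of all genes. Both that rose belong to ER-associated degradation, in a list of 15 stress sensor, degradation and feedback genes. They are 13.3% of that list, close to the share of all genes. Herpud1, a scaffold of the degradation complex, was at 85.0, 82.3 and 138 CPM in P2 baseline, 118, 161 and 100.3 CPM in P2 sham +3 days, 136, 123 and 112 CPM in P2 resected +3 days, 169.7, 376 and 390.3 CPM in P10 baseline, 220.4, 309 and 288 CPM in P10 sham +3 days and 203, 246 and 195 CPM in P10 resected +3 days. Every P10-window library was above every P2-window one, and Herpud1 rose by 1.17 on the log2 scale, or 2.26-fold (SE 0.17, adjusted p 0.00016). Os9, a lectin that selects misfolded glycoproteins, had 121 to 171 CPM in the P2 window (median 138) and 173 to 281 CPM in the P10 window (median 218), also without overlap (log2 fold change 0.66, SE 0.12, 95% interval 0.40 to 0.92, adjusted p 0.00136). Both were higher at baseline too, Herpud1 by 1.62 (adjusted p 0.0052) and Os9 by 0.82 (adjusted p 0.0359). At baseline the call of Os9 was less stable, since only 8 of 15 alternative settings called it, with adjusted p up to 0.169. For Herpud1 at baseline 14 of 15 alternative settings called it, with adjusted p up to 0.06, in the fit of the 2 baseline groups alone. Between the windows both genes were called under all 26 settings. The list's median log2 fold change was 0.49, against -0.05 for the 57 members and -0.06 for all genes. The sensor genes themselves did not pass the edgeR test, with log2 fold changes of 0.65 for Ern1 (IRE1), 0.34 for Eif2ak3 (PERK) and 0.20 for Atf6 and adjusted p between 0.129 and 0.672.

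The 2 that fell were Ergic2, a receptor cycling between ER and Golgi (log2 fold change -0.47, SE 0.13, 95% interval -0.74 to -0.20, adjusted p 0.021), and Srp19, a protein of the signal recognition particle (log2 fold change -0.48, SE 0.15, 95% interval -0.79 to -0.16, adjusted p 0.0439). For Ergic2, 21 of 26 alternative settings called it, with adjusted p up to 0.139. For Srp19, 11 of 26 alternative settings called it, with adjusted p up to 0.131, and its call was lost in most fits that left out 1 library and in the fit without a filter on low counts. In the remaining lists, 1 of 8 signal recognition particle and receptor genes, 1 of 18 other coat and sorting genes, and by edgeR none of 9 oligosaccharyltransferase and none of 3 CREB3 family genes were called, with 2 and 0 of the last 12 at an unadjusted p under 0.05.

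Apical resection was compared with sham surgery 3 days after the operation, to see what removal of the apex added to the procedure at each age. No member was called at P2 or at P10 by edgeR, DESeq2 or limma-voom, and of all genes edgeR called 0% and 0%, DESeq2 0.182% and 0.259%, and limma-voom 0% and 0%. At an unadjusted p under 0.05 there was 1 member at P2, against 4.51% of all genes, and 0 at P10, against 4.09%. The member at P2 was Creb3l1, with 133, 105 and 94.8 CPM in P2 sham +3 days and 146, 199 and 163 CPM in P2 resected +3 days. The 3 resected libraries were all above the 3 sham ones, and the P2 baseline libraries were at 167, 175 and 180.4 CPM. Its log2 fold change against sham was 0.61 (SE 0.20, 95% interval 0.19 to 1.04, unadjusted p 0.00749, adjusted p 1). Groups did not overlap for 3 members at P2 (Tmed10, a p24 cargo receptor, Canx and Creb3l1, all higher after resection) and 3 at P10 (Ssr1 and Kdelr2 higher, Ddit3 lower), against 8.47% and 8.68% of all genes.

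Ddit3 had the largest estimate of any member at P10, lower after resection, with 38.6, 37.5 and 35.9 CPM in P10 sham +3 days and 29.7, 20.0 and 21.1 CPM in P10 resected +3 days (log2 fold change -0.66, SE 0.44, 95% interval -1.59 to 0.27, adjusted p 1). The 3 resected libraries were all below the 3 sham ones, and the interval crossed 0. The precision of these comparisons can be read from their intervals, which lay within a 2-fold change for 42 of 57 members at P2 and 49 at P10, against 28.4% and 32.5% of all genes. Median log2 fold changes over the members were 0.06 at P2 and 0.04 at P10, beside 0 and 0.02 over all genes. For Hspa5, the usual reporter of ER stress, the change was 0.25 at P2 (95% interval -0.18 to 0.68) and 0.09 at P10 (95% interval -0.34 to 0.52).

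**Figure D4:**
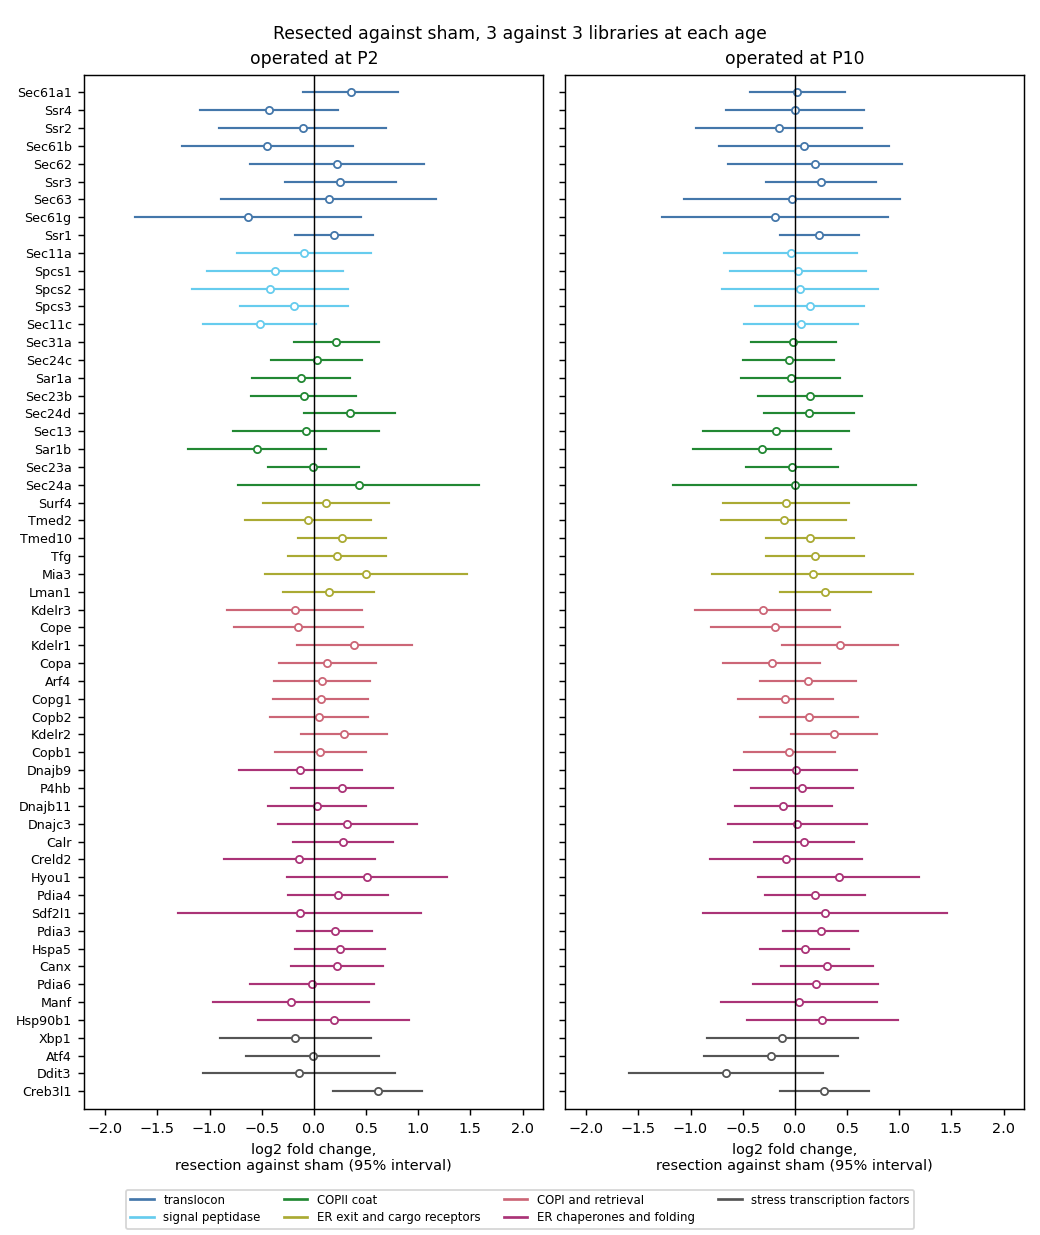
Log2 fold change of the 57 genes after resection against sham surgery at P2 and at P10, 3 libraries against 3, with 95% intervals and colours by role. At P10 every interval crosses 0, and at P2 Creb3l1 alone does not.

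Sham surgery was also set against un-manipulated pups, a comparison that holds the 3 days of growth as well as the operation. No member was called at P2 or P10 by edgeR, DESeq2 or limma-voom, and of all genes edgeR called 0% and 0.00618% and DESeq2 1.09% and 1.07%. At P2, 3 members were at an unadjusted p under 0.05 (5.26%), against 7.6% of all genes, all 3 lower after sham surgery, namely Creb3l1, Pdia3 and Canx. Creb3l1 had the largest estimate of the 3, with 167, 175 and 180.4 CPM at P2 baseline and 133, 105 and 94.8 CPM in P2 sham +3 days (log2 fold change -0.65, SE 0.20, 95% interval -1.08 to -0.22, adjusted p 0.496). The sham libraries are the same ones against which Creb3l1 was higher after resection. At P10 1 member was at that level (1.75%), against 7.4% of all genes. It was Hspa5, with 1512, 1766 and 2262 CPM at P10 baseline and 1302, 1162 and 1641 CPM in P10 sham +3 days (log2 fold change -0.43, SE 0.20, 95% interval -0.86 to -0.00169, adjusted p 0.673). Without the 3 long-transcript libraries, 2 members were called at P2, Mia3 and Creb3l1, both lower (3.51%), against 2.76% of all genes. With a term for these libraries 2 were called, Mia3 and Hsp90b1, both lower, against 3.31%. In the fit without them, the P2 sham +3 days libraries left had length slopes of -0.23 and -0.06, beside 0.09, 0.12 and -0.02 in P2 baseline. The groups thus also differed in length trend there, and its part in these calls was not tested.

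Whether surgery acted differently at the 2 ages was tested as the difference of effects. No member was called for resection against sham or for sham against baseline by edgeR, DESeq2 or limma-voom, with 0% and 0% of all genes called by edgeR and 0.104% and 0.784% by DESeq2, and 0 and 1 members at an unadjusted p under 0.05, against 2.88% and 6.6% of all genes. The one was Ddit3, whose effect of sham surgery was 0.72 at P2 and -0.68 at P10, a difference of -1.40 (SE 0.62, 95% interval -2.70 to -0.09, adjusted p 0.73). For Creb3l1 the effects of resection were 0.61 and 0.28, and their difference of -0.33 had a 95% interval of -0.93 to 0.27. With intervals this wide, 30 of 57 members had a difference of resection effects bounded within 2-fold.

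Most of the spread of the 57 genes lay between libraries of one group. Differences between the 6 group means held 28.8% of the variance of the members' log2(CPM + 1) values, with 5 of 17 degrees of freedom, and the spread within groups 71.2%. The first principal component of the members took 48.4% of the variance of these values. Its highest scores were those of P10 baseline replicate 1, P2 sham +3 days replicate 1 and P10 sham +3 days replicate 1, and its lowest those of P2 sham +3 days replicate 2 and P10 baseline replicate 3. Each of the first 3 libraries has companions of the same group at negative scores. Genes with the largest positive weights were Sec24a (0.29), Mia3 (0.27) and Sec63 (0.26), and with the largest negative ones Sdf2l1 (-0.29), Xbp1 (-0.21) and Sec61b (-0.21). Over the 57 genes the weights had a Spearman correlation of 0.52 with summed exon length and -0.48 with the GC content of the longest transcript, as a description over genes that share the same libraries.

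Genes outside the lists had a trend with length of the same sign in these libraries. In P2 sham +3 days replicate 1 the 19 longest members (summed exons of 4693 bases or more) had a median deviation from the group mean of 0.02 on the log2 scale and the 19 shortest (2880 bases or fewer) of -0.39. In P10 baseline replicate 1 these were -0.08 and -0.37, and in P10 sham +3 days replicate 1 0.04 and -0.41. The sign was opposite in P2 sham +3 days replicate 2, at -0.14 and 0.30. Other libraries had the trend too, among them P2 baseline replicate 2 at 0.01 and -0.26 and, with the opposite sign, P2 baseline replicate 3 at -0.02 and 0.33. Over 15963 tested genes outside the lists, the Spearman correlation of deviation with exon length was 0.33, 0.30 and 0.35 in the 3 long-transcript libraries and -0.35 in P2 sham +3 days replicate 2. In P2 baseline replicates 2 and 3 it was 0.22 and -0.26. RNA quality values were not among the data used here, so its part in the trend was not tested.

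The number of members called moved with the handling of this trend. Without the 3 libraries, 14 of 57 members were called between the windows, 10 lower and 4 higher, against 22.5% of all genes tested in that fit. With each library's length slope as a covariate 14 were called, 12 lower and 2 higher, against 20.9% of all genes. With all 18 libraries and a term for the 3, 19 were called, 13 lower and 6 higher, against 26.1% of all genes. Ssr1, Sec11c, Hsp90b1, Canx, Copb1 and Lman1 were lower and Kdelr3 and Xbp1 higher in all 3 of these fits. Pdia3, Pdia4, Pdia6, Hspa5, Manf and Sec61b were called with the covariate and not without the 3 libraries, and Mia3, Sec23a, Sec24a, Ssr3, Sec61a1 and Surf4 the other way round. All 3 settings were chosen after the data had been seen. The P10 window lost 2 of the 3 libraries and the P2 window 1, so the fit without these libraries is not balanced between the windows, and Mia3 and Sec24a are among the genes that the component weighted most. Of the genes called in all 3 fits, Hsp90b1 (0.21), Xbp1 (-0.21) and Kdelr3 (-0.18) also had large weights. Those of Ssr1, Sec11c, Canx, Copb1 and Lman1 lay between 0.02 and 0.10.

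**Figure D5:**
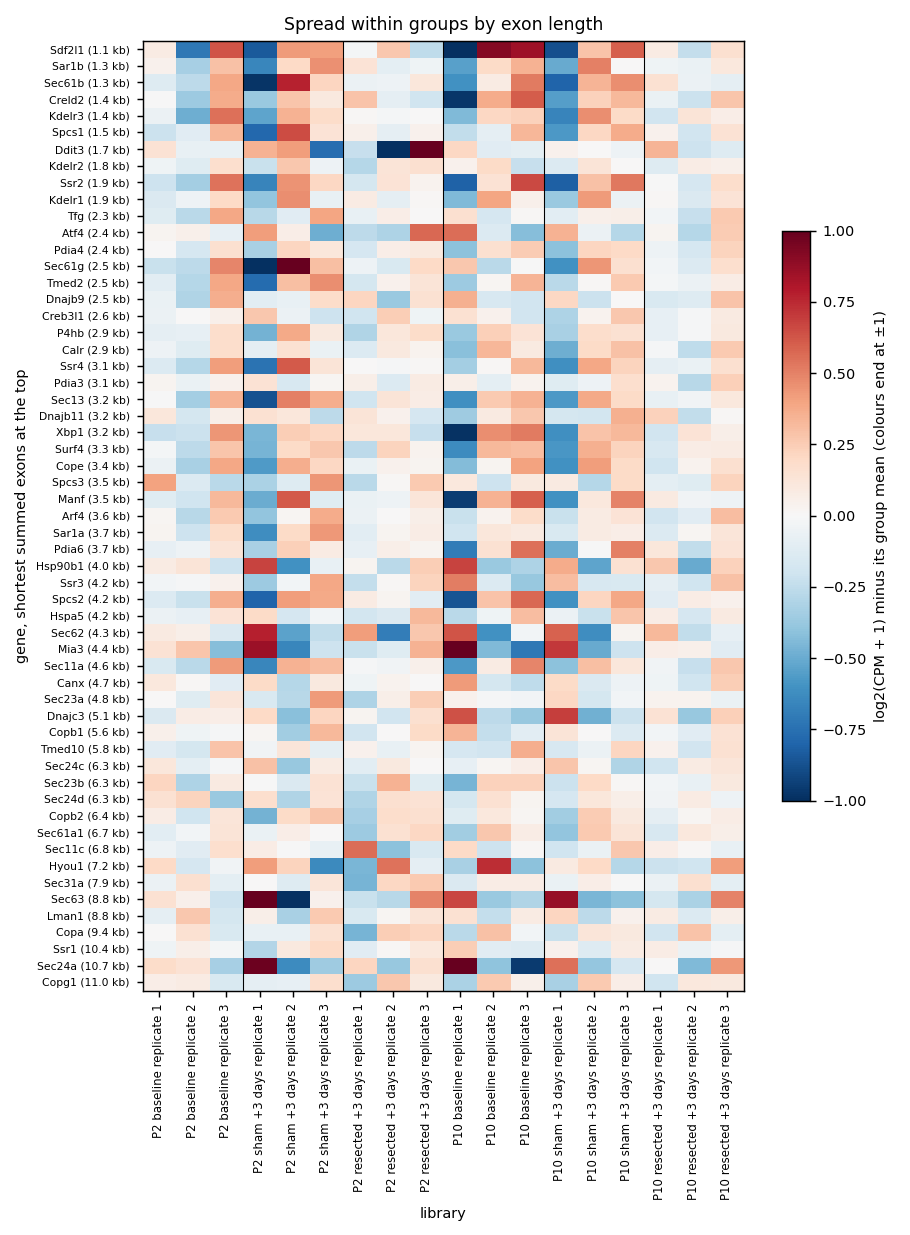
Deviation of log2(CPM + 1) from the group mean for 57 genes (rows, shortest summed exons at the top) in 18 libraries (columns, groups separated by lines), with colours ending at ±1. P2 sham +3 days replicate 1, P10 baseline replicate 1 and P10 sham +3 days replicate 1 are blue for many short genes and red for Sec24a, Sec63 and Mia3.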

How the data were processed

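Sorted GFP+ cells gave RNA that was pre-amplified (SMARTer v4), tagmented with Nextera XT and read from a single end. The deposited values are whole-number counts per gene symbol, which the authors made by trimming with FastP 0.20.0, mapping with STAR 2.7.0f to GRCm38.p6 with the GENCODE M22 annotation, and counting exon reads with featureCounts (Subread 1.6.4) without regard to strand. These values had not been normalized, and their totals, given above, set the counting precision. Here counts were filtered with filterByExpr (minimum count 10, minimum total 15), scaled by TMM and fitted in edgeR 4.0.16 (R 4.3.3) with 1 mean per group over all 18 libraries, and quasi-likelihood tests gave p-values adjusted by Benjamini-Hochberg over 16170 genes. Each SE is the size of the fitted log2 fold change divided by the square root of its F statistic, and 95% intervals were made from it. Alternatives were DESeq2 1.42.0, limma 3.58.1 voom with quality weights, RLE size factors, no filter, a replicate block, only the compared groups and each library left out, with the 3 long-transcript libraries removed, a length covariate and a term for the 3 added after the data had been seen. Exon lengths and overlaps came from GENCODE M21 on GRCm38 and promoters from RefSeq. The scripts were tested on simulated counts.

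The 57 members and the other lists were chosen with earlier results of these data known. Values in every library or their range and full statistics are given for members called in any comparison (up to the 8 of largest change in each) and for 18 genes set by name (Hspa5, Hsp90b1, Calr, Sec61a1, Ssr4, Sec24d, Sec23a, Mia3, Kdelr2, Kdelr3, Xbp1, Atf4, Ddit3, Creb3l1, Creld2, Sdf2l1, Manf and Dnajb9), and any other gene with a value was named after its values were seen.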

Additional observations from a re-analysis of the deposited data

How the results depend on the processing

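The number of members called between the windows, 3 of 57, was 4 with RLE size factors and 3 without a filter (Hsp90b1, Kdelr3 and Xbp1), and rose to 8 with DESeq2, 16 with limma-voom and quality weights, 14 without the 3 long-transcript libraries, 14 with the length covariate and 19 with a term for the 3. The share of all genes rose too, from 13.5% to 18.6%, 28.3%, 22.5%, 20.9% and 26.1% in that order, where the members' shares were 14%, 28.1%, 24.6%, 24.6% and 33.3%. Leaving out 1 library gave 3 to 8, with 8 without P10 baseline replicate 1 and 5 each without P10 sham +3 days replicate 1 and without P2 sham +3 days replicate 2. At baseline the count of 1 became 2 without a filter, 0 in a fit of the baseline groups alone, 5 with DESeq2, 14 with limma-voom, 11 without the 3 libraries, 6 with the covariate and 13 with the term, and 0 to 5 with 1 library left out, 5 without P10 baseline replicate 1 and 0 without any of the other 5. After sham surgery the count of 1 became 0 without a filter, in a fit of the 2 groups alone, with limma-voom, without the 3 libraries and with any 1 library left out, and 2 with the covariate. For sham against baseline at P2 it went from 0 to 2 without the 3 libraries and with the term. At baseline the shares of all genes for DESeq2, limma-voom, the fit without the 3 libraries and that of the baseline groups alone are given above. For the other settings at baseline, and for the alternatives after sham surgery, no such share is given. Those counts therefore cannot be read as particular to the members. The cause of these shifts was not tested.

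Of the genes called by edgeR, Ssr1, Sec11c, Hsp90b1, Herpud1, Os9, Ergic2 and Srp19 kept their sign between the windows under each of the 26 settings run, as did Ssr1, Herpud1 and Os9 at baseline and Sec11c after sham surgery under 15. Some estimates near 0 reversed sign, and their log2 fold changes under the setting that reversed them were as follows. Between the windows with RLE size factors, Calr 0.00414. Between the windows without a filter, Sec24d 0.00839 and Calr 0.029. Between the windows with limma-voom, Calr 0.092. Between the windows with DESeq2, Calr 0.00444. Between the windows without the 3 libraries, Sec24d 0.053 and Calr 0.11. Between the windows with the covariate, Ssr4 -0.056. Between the windows with the term, Calr 0.023. At baseline without a filter, Sec24d 0.036 and Creb3l1 0.00493. At baseline with limma-voom, Ssr4 0.027, Calr 0.063 and Sdf2l1 0.075. At baseline without the 3 libraries, Ssr4 0.017, Sec24d 0.060, Calr 0.035, Sdf2l1 0.13 and Creld2 0.025. At baseline with the covariate, Sec24d 0.00939. At baseline with the term, Ssr4 0.14 and Sec24d 0.0025. At baseline in a fit of the 2 groups, Sec24d 0.00227. With 1 library left out they ranged between the windows -0.056 to 0.17 for Ssr4, -0.082 to 0.00756 for Sec24d, -0.067 to 0.060 for Calr, -0.082 to 0.36 for Ddit3, -0.017 to 0.081 for Creb3l1, and at baseline -0.32 to 0.11 for Ssr4, -0.19 to 0.085 for Sec24d, -0.32 to 0.036 for Calr, -0.71 to 0.13 for Sdf2l1, -0.62 to 0.026 for Creld2, -0.13 to 0.036 for Creb3l1.

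With the replicate number as a replicate block, 9 members were called between the windows, 4 at baseline and 1 after sham surgery. Canx, Copb1, Hspa5, Kdelr3, Pdia3 and Xbp1 were gained between the windows, and the 9 were 15.8% of the members, against 17% of all genes. The shares of all genes with the block at baseline and after sham surgery are not given, so the counts there cannot be read as particular to the members. Nothing in the labels says that a number marks a shared litter or day. Deviations of same-numbered libraries from their group means correlated from -0.13 to 0.38 over 45 pairs of libraries, 15 of them over 0.1. For 10 of 18 libraries, the mean correlation with libraries of other groups was highest for those of their own number. All 3 same-number pairs were over 0.1 for P10 baseline with P10 sham +3 days (0.107 to 0.328), and for P2 with P10 resected +3 days (0.121 to 0.189), where no member was called with or without the block. They were also over 0.1 for P2 sham +3 days with P10 baseline (0.146 to 0.378), which were not compared with each other. For the groups of the other contrasts, the 6 groups of the windows among them, not all were, so the block was not taken as a pairing there. By the number that ends the titles, the 3 pairs of libraries numbered 3 correlated from 0.29 to 0.38, while of 15 pairs that share another number 2 were over 0.1. The block changed no other count of members called. Counts for resection against sham, for P10 against P2 after resection, for sham against baseline at P10 and for both differences of effects were 0 under every setting. With 3 libraries a group, the median half-width of a member's 95% interval was 0.55 for resection against sham at P2, which limits what could be detected there, and 0.32 between the windows.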
